A study of Mus musculus with 76 samples.

Results

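Interferon-stimulated genes were followed through neural cultures of 2 mouse strains. The set holds 44 genes out of 38924 in the deposited table, and all 44 were found by gene identifier. They are listed by name as a functional module. By role they are 10 sensors of foreign nucleic acid, 6 receptors and transcription factors, 4 tetratricopeptide-repeat effectors (the Ifit genes), 7 GTPases, 3 TRIM ubiquitin ligases, 2 genes of the ISG15 system, and 12 membrane-bound and other effectors. The cultures were grown from embryonic stem cells of C57BL/6J (B6), the common laboratory strain, and WSB/EiJ (WSB), a wild-derived inbred strain. Polyadenylated RNA of whole cultures was sequenced at 3 stages: a progenitor stage (NPC, for neural progenitor cells), neuronal maturation, and regrowth of axons. At each stage both strains were kept as untreated controls or given ID-8, which inhibits the kinase DYRK1A, and at axonal regrowth each of these was also either axotomized (cut) or left uncut. This makes 16 groups and 70 libraries. NPC groups had 6 libraries and maturation groups 4. Axonal regrowth groups had 4, except WSB with ID-8 uncut and B6 with ID-8 cut, which had 3. The labels name no transgene, no dose or duration of ID-8, and not how many stem cell lines or clones stand for a strain, so each strain may be 1 line.

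Type I interferons are secreted proteins that signal through the receptor chains IFNAR1 and IFNAR2 and the kinases JAK1 and TYK2. Downstream of them STAT2 and IRF9, as subunits of the complex ISGF3, act at interferon-stimulated response elements in front of the genes described here. The products sense viral nucleic acid, block entry, replication or translation of viruses, and feed back on the pathway. Neurons and astrocytes are known to hold a low, tonic level of these transcripts without infection.

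The promoters show what the module shares in sequence. RefSeq start sites on GRCm38.p6 gave a window of 300 bases for 33 of the 44 members. The response element core, GAAA and GAAA parted by any 2 bases, searched on both strands, was in the window of 18 of these 33 members (54.5%), against 3.99% of 27025 genes with a window. The gamma-activated motif TTCNNNGAA, also on both strands, was in 11 of 33 (33.3%), against 9.55% of all genes. Windows of 5 members are printed 5′ to 3′ on the gene's strand, with capitals marking each core or its reverse complement. Ifitm3 and Bst2 are 2 of the 8 members called in the most comparisons, and the 3 Ifit windows were added after their values had been seen because all 4 Ifit genes rose with ID-8 in mature WSB cultures.
Ifitm3, window chr7:141010695-141010994, minus strand: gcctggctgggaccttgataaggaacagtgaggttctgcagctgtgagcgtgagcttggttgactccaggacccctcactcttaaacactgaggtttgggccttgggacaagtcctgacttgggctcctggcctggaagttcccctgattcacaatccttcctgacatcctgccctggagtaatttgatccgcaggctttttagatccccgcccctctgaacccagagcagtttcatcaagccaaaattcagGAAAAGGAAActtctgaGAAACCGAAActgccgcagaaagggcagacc
Bst2, window chr8:71537423-71537722, minus strand: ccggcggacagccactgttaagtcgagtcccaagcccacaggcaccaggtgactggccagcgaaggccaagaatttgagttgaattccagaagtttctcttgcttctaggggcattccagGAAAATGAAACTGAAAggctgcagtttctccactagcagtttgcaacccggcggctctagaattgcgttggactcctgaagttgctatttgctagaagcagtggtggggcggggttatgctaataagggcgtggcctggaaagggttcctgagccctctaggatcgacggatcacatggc
Ifit1, window chr19:34640639-34640938, plus strand: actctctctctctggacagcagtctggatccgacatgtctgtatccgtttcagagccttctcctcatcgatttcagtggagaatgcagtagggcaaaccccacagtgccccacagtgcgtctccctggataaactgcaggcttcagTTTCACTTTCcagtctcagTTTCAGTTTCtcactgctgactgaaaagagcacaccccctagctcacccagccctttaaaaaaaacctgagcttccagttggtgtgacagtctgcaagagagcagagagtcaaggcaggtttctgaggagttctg
Ifit3, window chr19:34583279-34583578, plus strand: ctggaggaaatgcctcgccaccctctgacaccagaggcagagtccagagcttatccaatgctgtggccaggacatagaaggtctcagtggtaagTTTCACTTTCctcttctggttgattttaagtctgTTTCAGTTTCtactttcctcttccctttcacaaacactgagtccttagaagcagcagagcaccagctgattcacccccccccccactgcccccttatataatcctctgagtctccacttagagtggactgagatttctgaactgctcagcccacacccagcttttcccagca
Ifit3b, window chr19:34607707-34608006, plus strand: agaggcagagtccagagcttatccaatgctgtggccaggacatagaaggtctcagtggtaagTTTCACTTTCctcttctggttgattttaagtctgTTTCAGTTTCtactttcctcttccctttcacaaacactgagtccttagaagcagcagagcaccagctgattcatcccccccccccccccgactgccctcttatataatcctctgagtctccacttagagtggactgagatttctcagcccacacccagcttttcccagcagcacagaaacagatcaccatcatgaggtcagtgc
Each of these windows held 2 cores, and those of Bst2 overlap. The cores of Ifit1 start 104 and 85 bases before the start site, and those of Ifit3 start 156 and 122 bases before it. In Ifitm3 both lie after the start site. The windows of Ifit3 and Ifit3b share an identical run of 169 bases. A match is a description of letters and shows no binding.

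Library totals ran from 20369000 to 131489500 expected counts, and levels are given in counts-per-million of that total (CPM), as mean ± SD over libraries. Cell type markers showed mixed cultures: neuronal and astrocyte genes were abundant at maturation and axonal regrowth, with Map2 up to 1392 CPM and Gfap up to 7758 CPM as group means. Of 10 microglia and macrophage markers, Cx3cr1, Ptprc, Tyrobp and C1qa stayed under 0.1 CPM in every maturation group. The other 6 were detected there, with group means of 15.2 to 30.2 CPM for Cd68, 3.16 to 25.2 for Tmem119, 1.03 to 1.44 for P2ry12, 0.342 to 1.81 for Csf1r, 0.101 to 0.637 for Aif1 and 0.335 to 0.431 for Itgam. In such bulk RNA, fewer cells of a type and less RNA per cell cannot be told apart. Reads of both strains were counted on GRCm38, a B6 genome, and what WSB sequence differences did to the counts was not tested. The library labelled WSB ID-8 cut replicate 3 stood apart from its culture set: correlations of deviations within WSB sets ran down to -0.08 with it and started at 0.605 without it. Its summed fibroblast markers were at 7440 CPM, against 2801, 2598 and 120.8 CPM in the other libraries of the group, of which the last is itself far from the rest. Axonal regrowth results that move without it are given both ways.

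Some members share sequence with copies, and counts between copies are uncertain. Of the 50-base stretches of their transcripts, Oas1a shared 57.6% with Oas1g, Ifit3 shared 51.2% with Ifit3b, and Trim5 shared 36.3% with Trim12c. The gene models of Gbp9 and Gbp4 overlap on 1 strand and shared 8.05% of the stretches of Gbp9. Some members overlap a gene on the opposite strand, and whether the counting used strand is not stated, so reads of Dhx58, Eif2ak2, Oas2, Oasl1, Irf1, Irf7, Gbp2, Usp18, Rtp4 and Ifi35 may include that partner. In all, 33 members shared under 5% with any other gene.

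Levels differed over a wide range between members and groups. Per kilobase of exon, Ifitm3, which keeps viruses from crossing endosomal membranes, was the highest member, with a median over groups of 173.1 CPM per kilobase. Ifnar1 followed at 14.8 and Ifi27, a mitochondrial and nuclear envelope protein, at 11.5. Of the 44 members, 27 reached a group mean of 10 CPM and 4 reached 100 CPM. These 4 were Ifitm3 at 731.6 CPM in mature WSB controls, Ifit3 at 161.1 in mature WSB cultures with ID-8, Ifnar1 at 106.8 in WSB NPC controls, and Trim25 at 105.7 in B6 NPC controls. Mx1 and Ifi44l stayed under 1 CPM in every group.

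**Figure D1:**
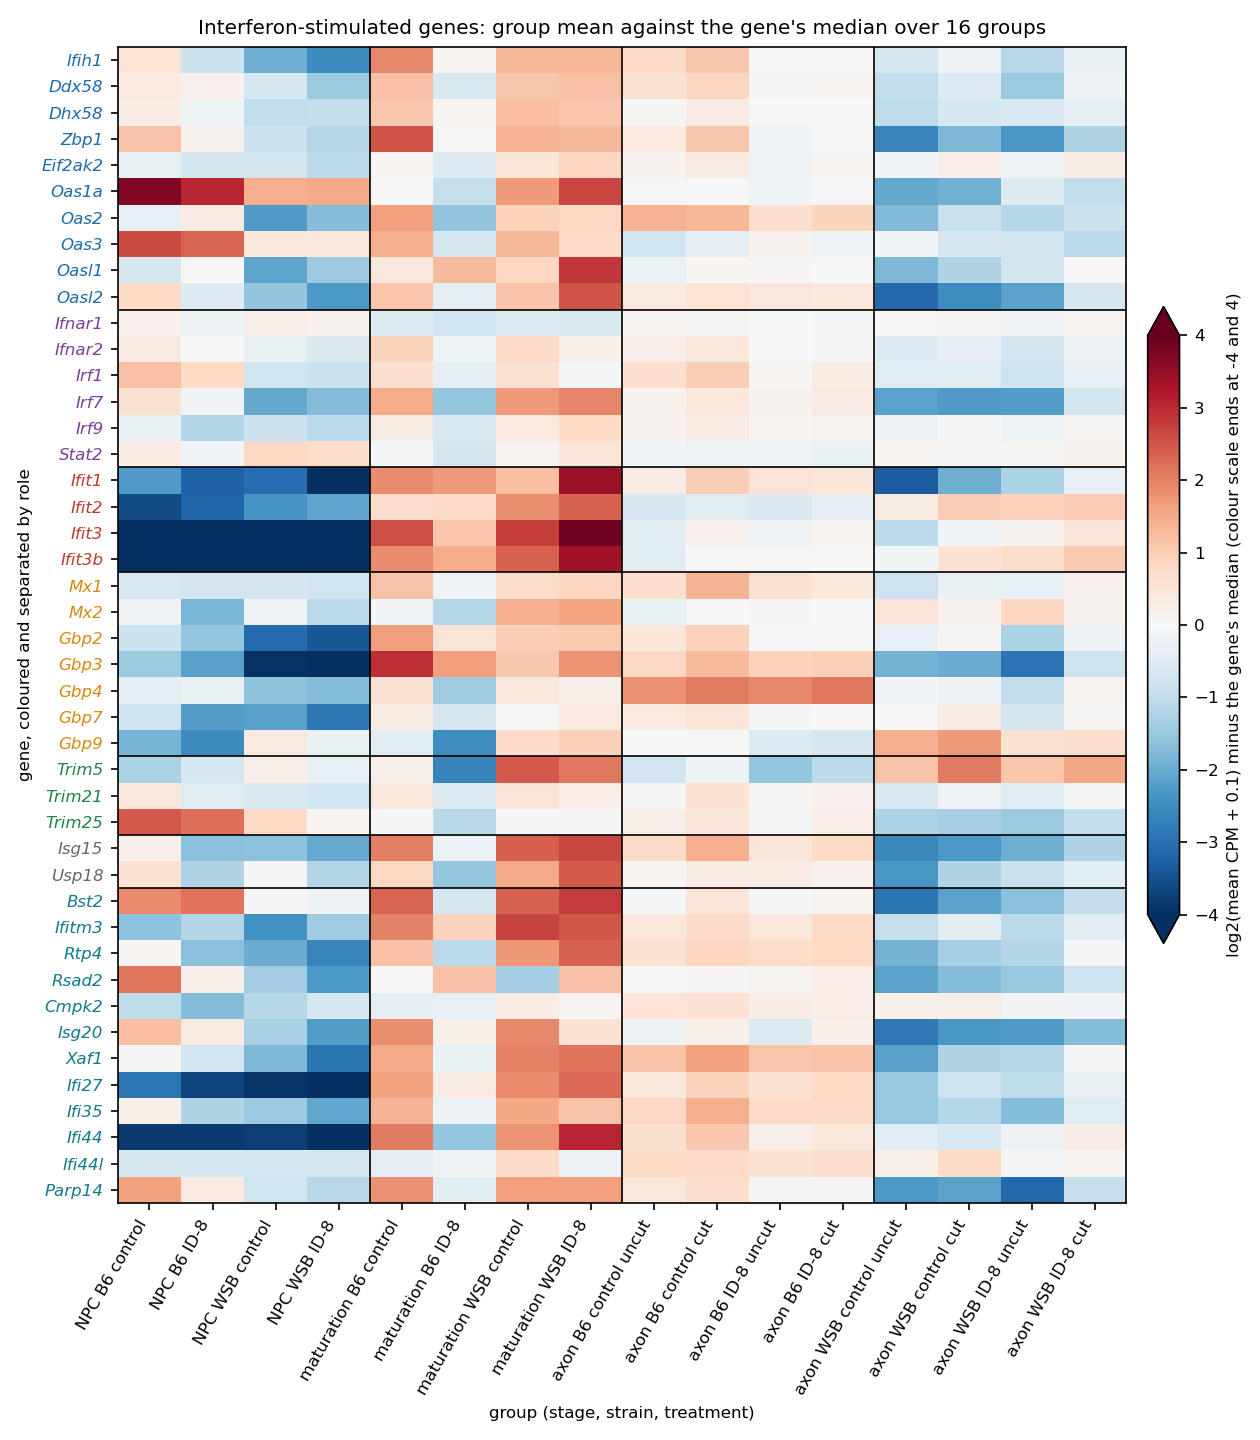
Group means of all 44 genes (rows, by role) in the 16 groups (columns), as log2(mean CPM + 0.1) minus the gene's median over groups, with the colour scale ending at -4 and 4. Mature cultures are mostly red, except B6 with ID-8, and WSB NPC and WSB axonal regrowth cultures are mostly blue, as for Oasl2, which ran from 0.748 CPM in uncut WSB axonal regrowth controls to 41.6 CPM in mature WSB cultures with ID-8.

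At maturation the comparison is how ID-8 cultures differed from controls in each strain. In B6 the module was broadly lower with ID-8: 30 of 43 members tested fell and none rose, with a median log2 difference of -1.29 against 0.00 over all genes. The background was 9.41% of genes called lower and 7.71% called higher, where called means an adjusted p under 0.05. In WSB, 7 members rose and 1 fell, against 2.86% of genes called higher and 3.03% lower, and 3 were called when either of 2 WSB libraries was left out. The strain controls overlapped for most members, whereas with ID-8 32 of 43 members had all 4 WSB libraries above all 4 B6 libraries, where 9.93% of all genes did.

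Ifi44, a cytoplasmic antiviral effector, is an extreme case, with the largest difference of responses among the members called in the interaction test below. Its level in the 4 B6 controls was 12.7, 15.1, 5.07 and 7.21 CPM, and with ID-8 it was 0.590, 0.696, 0.743 and 0.825 CPM. The 4 WSB controls read 11.5, 11.9, 5.04 and 4.27 CPM, and with ID-8 19.0, 29.3, 16.8 and 12.7 CPM. The controls of the strains overlapped, every B6 library with ID-8 lay below its controls, and every WSB library with ID-8 lay above its own. The log2 difference with ID-8 in B6 was -3.76 ± 0.43 (SE, adjusted p = 4.873e-05, edgeR). The rise of Ifi44 in WSB did not pass the test.

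Among the sensors, 6 of 10 fell with ID-8 in B6. Ddx58, which encodes the RNA helicase RIG-I, was at 22.6, 27.6, 33.6 and 34.1 CPM in B6 controls and at 6.80, 7.88, 9.54 and 8.97 CPM with ID-8. These groups lay apart, and the log2 difference was -1.79 ± 0.21 (adjusted p = 5.939e-05). Oas2, an enzyme that makes the messenger for RNase L, fell by 4.25 ± 0.72 on the log2 scale (adjusted p = 0.00102). Its level fell from 1.56 ± 0.827 CPM in B6 controls to 0.0789 ± 0.0572 CPM with ID-8. The latter is near the floor of 3 counts, which stands for 0.0228 to 0.147 CPM per library. Ifih1, the MDA5 helicase, fell by 1.82. Oasl2, an OAS-like protein, was at 14.5, 22.2, 13.3 and 13.5 CPM in B6 controls and 7.62, 5.79, 4.19 and 4.95 CPM with ID-8. Its 4 WSB libraries with ID-8, at 43.9, 65.2, 30.6 and 26.5 CPM, were above the WSB controls at 22.7, 22.0, 10.1 and 9.54 CPM. Dhx58, Eif2ak2, Oas1a and Oasl1 did not pass the test in B6, with log2 differences from -1.16 for Oas1a to 0.95 for Oasl1.

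Of the receptors and factors, 5 of 6 fell with ID-8 in B6. Irf7, the factor that amplifies interferon production, read 6.99, 7.47, 3.04 and 3.62 CPM in B6 controls and 1.12, 0.443, 0.287 and 0.413 CPM with ID-8. Each B6 library with ID-8 was below each control, and the log2 difference was -3.16 ± 0.55 (adjusted p = 0.00124). In WSB, Irf7 read 9.41, 9.00, 3.14 and 3.47 CPM in controls and 10.9, 10.1, 5.12 and 3.68 CPM with ID-8, which overlap. Stat2, a subunit of ISGF3, was at 31.3, 33.6, 29.7 and 30.4 CPM in B6 controls and 19.1, 20.3, 18.1 and 20.9 CPM with ID-8. Its fall was small, -0.63 ± 0.19 (adjusted p = 0.02976), but the groups did not overlap. Ifnar1, the first receptor chain, was level: 49.9, 61.2, 62.2 and 66.1 CPM in B6 controls against 37.7, 53.5, 55.7 and 57.7 CPM with ID-8, a log2 difference of -0.19 ± 0.13 (adjusted p = 0.3661).

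The Ifit genes, whose products bind viral RNA and translation factors, did not follow the other roles in B6. Only Ifit3 fell, by 1.45 ± 0.27 on the log2 scale, while Ifit1 and Ifit2 had differences of -0.14 ± 0.48 and 0.12 ± 0.16. Ifit2 read 15.8, 22.3, 22.5 and 24.3 CPM in B6 controls and 20.5, 19.8, 25.7 and 23.1 CPM with ID-8. In WSB all 4 Ifit genes rose. Ifit1 rose by 2.32 ± 0.50 (adjusted p = 0.01303), from 15.6, 13.8, 3.96 and 3.66 CPM to 54.0, 74.0, 27.2 and 21.6 CPM. Ifit3 and Ifit3b cannot be told apart well, and their summed level was 80.3 ± 11.5 CPM in B6 controls, 34.3 ± 5.78 with ID-8, 94.4 ± 29.9 in WSB controls and 202.6 ± 59.2 with ID-8.

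Among the GTPases, 5 of 7 fell with ID-8 in B6. Gbp9, a guanylate-binding protein, was at 5.50, 6.04, 5.63 and 6.81 CPM in B6 controls and at 1.21, 1.87, 0.911 and 1.47 CPM with ID-8, a log2 difference of -2.10 ± 0.23 (adjusted p = 3.761e-05). In WSB it was at 16.2, 13.9, 13.5 and 11.3 CPM in controls and 14.9, 22.2, 12.1 and 13.7 CPM with ID-8, which overlap. All 8 WSB libraries were thus above all 8 B6 libraries. Summed with its overlapping neighbour Gbp4, the level was 7.77 ± 0.720 CPM in B6 controls and 1.73 ± 0.462 with ID-8. Mx1, whose product blocks influenza virus, is known to be defective in B6 and many laboratory strains. It was at 0.0596 to 0.620 CPM in B6 controls and 0.0258 to 0.112 CPM with ID-8, near the 3-count floor of 0.0228 to 0.147 CPM per library, and did not pass the test.

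All 3 TRIM ligases fell with ID-8 in B6. Trim25, which ubiquitinates RIG-I, was at 11.8, 17.9, 21.2 and 24.7 CPM in controls and 5.99, 7.18, 10.6 and 12.3 CPM with ID-8, groups that overlap at 1 library. Its log2 difference was -1.03 ± 0.27 (adjusted p = 0.01547). Trim5, a retrovirus restriction factor in primates, fell by 3.62 ± 0.39 (adjusted p = 2.673e-05). Its copy Trim12c shares reads with it, and the sum of both was 17.4 ± 2.06 CPM in B6 controls, 4.56 ± 1.11 with ID-8, 17.7 ± 4.99 in WSB controls and 13.8 ± 4.03 with ID-8. In B6 with ID-8 Trim12c alone made 4.45 CPM of this sum, so Trim5 itself was near the floor of 3 counts. The size of its fall, and of its strain and response differences at maturation given below, rests on that level.

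Both genes of the ISG15 system fell with ID-8 in B6, Isg15, a ubiquitin-like modifier, by 2.30 ± 0.75 and Usp18, the protease that removes it and restrains the receptor, by 2.42 ± 0.48. Of the membrane-bound and other effectors, 8 of 11 tested fell. Ifitm3 read 408.0, 450.4, 405.8 and 496.6 CPM in B6 controls and 231.6, 184.0, 201.4 and 217.7 CPM with ID-8, a log2 difference of -1.03 ± 0.16 (adjusted p = 0.0005856). In WSB it read 745.4, 723.3, 735.8 and 721.9 CPM in controls and 766.6, 739.8, 463.9 and 541.3 CPM with ID-8. Thus the WSB groups overlapped and the B6 groups did not. Parp14, an ADP-ribosyltransferase, fell by 2.26 ± 0.39 (adjusted p = 0.001099), from 7.49, 10.2, 12.3 and 14.2 CPM to 1.04, 2.18, 2.95 and 2.81 CPM. Isg20, an exonuclease, fell in both strains, by 1.64 ± 0.27 in B6 and by 1.31 ± 0.27 in WSB. Ifi35 fell by 1.59 ± 0.30 in B6, with 10.1, 9.63, 6.76 and 8.59 CPM in controls and 3.88, 1.39, 2.92 and 3.07 CPM with ID-8.

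Bst2, also called tetherin, holds budding virus at the cell surface. In B6 controls it was at 57.2, 51.8, 9.83 and 13.0 CPM, and with ID-8 at 6.21, 3.64, 3.21 and 2.76 CPM. The labels letter the maturation cultures in order. From this order the first 2 libraries of each group were taken as a first culture experiment and the other 2 as a second. Whether they were separate experiments is not stated. For Bst2 the first experiment was the higher in controls of both strains. The WSB controls read 50.7, 49.5, 14.2 and 18.5 CPM. Within both experiments the B6 libraries with ID-8 lay below the controls.

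Rsad2, which encodes viperin, went the other way. It rose in WSB by 2.67 ± 0.50 (adjusted p = 0.005864), from 1.64, 2.39, 0.982 and 0.418 CPM to 11.9, 12.5, 3.34 and 5.28 CPM. In B6 it was at 2.73, 5.61, 4.11 and 2.38 CPM in controls and 9.05, 10.9, 6.47 and 7.25 CPM with ID-8. These B6 groups lay apart, but the difference of 1.23 ± 0.47 did not pass the test (adjusted p = 0.08374). The other members that rose in WSB were Ifit3 by 1.18, Oasl2 by 1.42, Ifit3b by 1.06, Oasl1 by 2.15 and Ifit2 by 0.55 on the log2 scale. Fitted on the first culture experiment alone, 11 members rose and 1 fell in WSB, against 7.76% and 5.75% of all genes, and on the second 13 rose and 3 fell, against 7.44% and 8.21%. Without WSB ID-8 replicate 2 or WSB control replicate 3 3 members were called in WSB, and without WSB control replicates 4 or 2 there were 4 and 5.

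**Figure D2:**
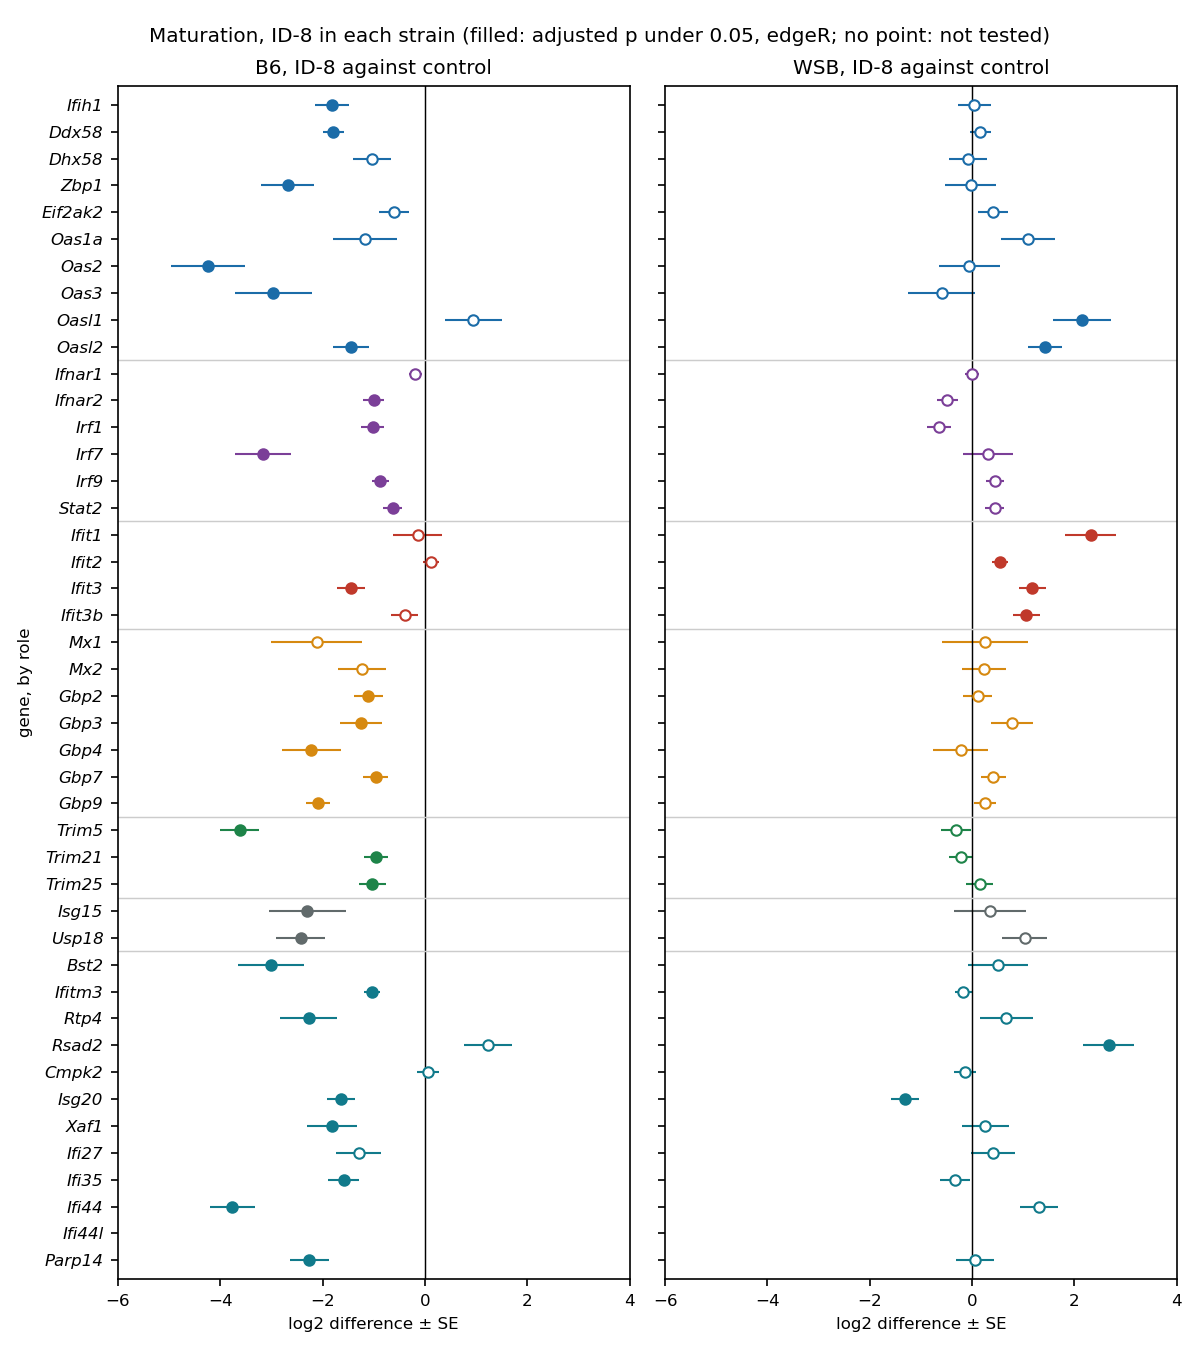
Log2 difference with ID-8 at maturation in B6 and in WSB (horizontal axis, ± SE) for each gene by role (rows), with filled points for an adjusted p under 0.05. Most B6 points lie left of 0, down to -4.25 for Oas2, while WSB points lie around 0 and to its right, up to 2.67 for Rsad2. The level of Oas2 in B6 with ID-8 was near the floor of 3 counts.

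The difference between the responses of the strains was tested as an interaction. In WSB 8 members had a higher response than in B6 and none a lower, against a background of 0.377% higher and 0.0826% lower. They were Ifi44 with a difference of log2 responses of 5.07 ± 0.57 (adjusted p = 0.001145), Gbp9 with 2.34 ± 0.32 (0.003161), Ifit3 with 2.63 ± 0.38 (0.006156), Trim5 with 3.31 ± 0.49 (0.006202), Ddx58 with 1.95 ± 0.29 (0.007558), Oasl2 with 2.87 ± 0.48 (0.01296), Irf9, the DNA-binding subunit of ISGF3, with 1.32 ± 0.24 (0.02161), and Usp18 with 3.45 ± 0.65 (0.02473). The value was above 0 for 42 of 43 members, against 8388 of 16954 genes. Each of the 8 was also called within the first experiment alone, where 26 members were called against 1.74% of genes, and within the second, where 24 were called against 2.52%. Both experiments are parts of the libraries by which the 8 were chosen, so these calls are no independent support. Ifi44 gave 5.44 ± 0.34 in the first and 4.68 ± 0.35 in the second. Of 16 fits that left out 1 library, Usp18 lost its call in 9 and Irf9 in 4, and the other 6 members kept theirs in all.

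**Figure D3:**
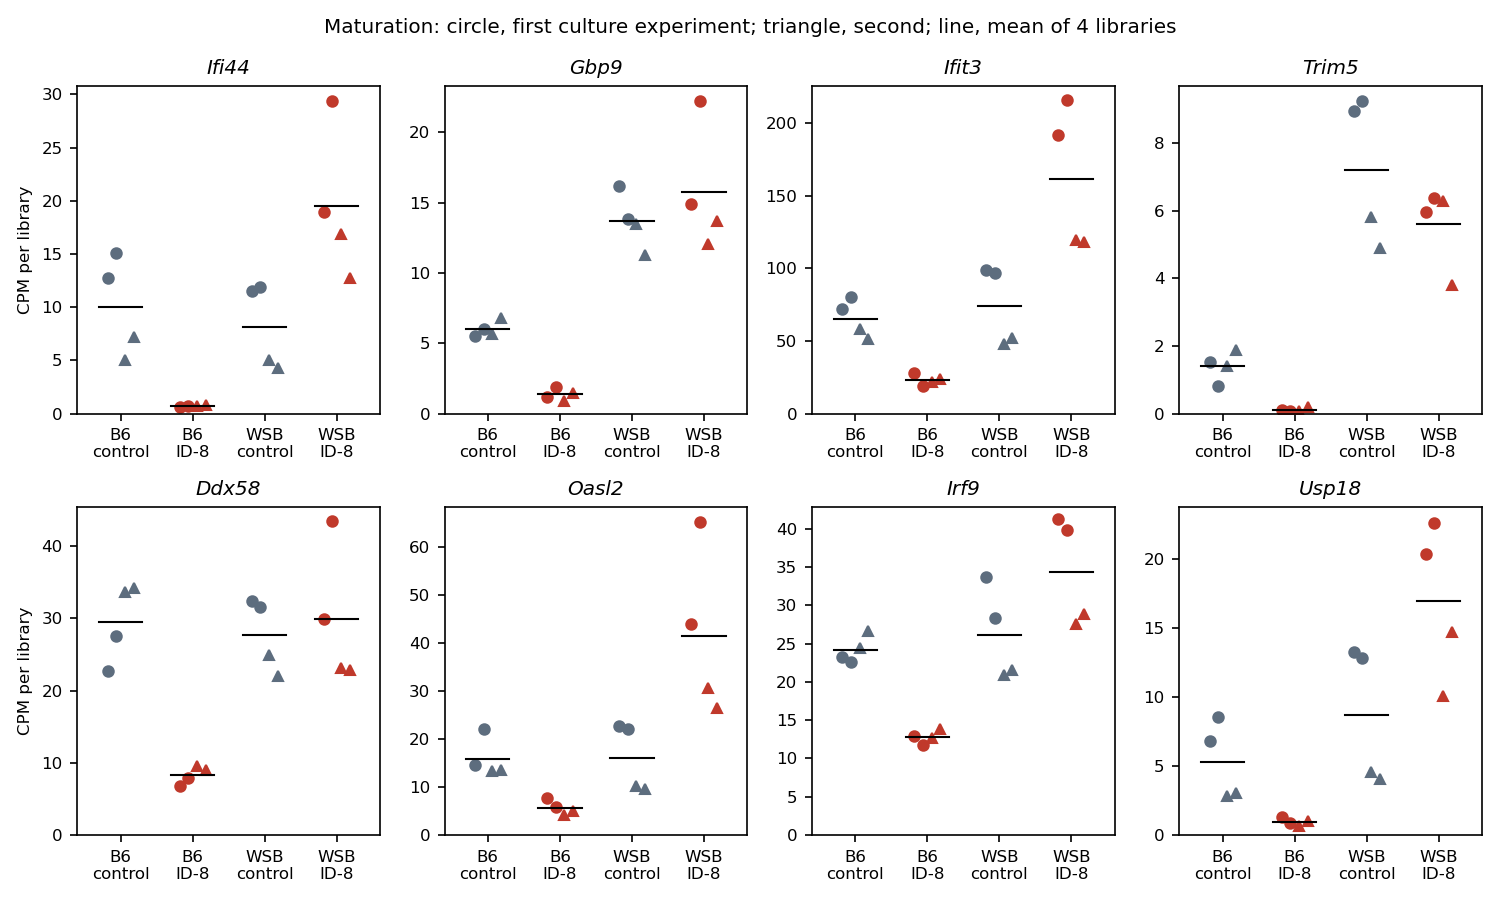
Level in CPM of the 8 genes whose ID-8 response differed between strains, in each of the 16 maturation libraries (circles, first culture experiment; triangles, second; line, mean of 4). For Ifi44 the B6 libraries with ID-8 sit between 0.590 and 0.825 CPM and the WSB libraries with ID-8 between 12.7 and 29.3 CPM.

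In the same sense, all 4 B6 libraries with ID-8 were below all 4 controls for 29 members and above them for 1, Rsad2, where 12.6% of all genes were below and 8.41% above. In WSB, 7 members lay wholly above and 2 wholly below their controls, against 6.32% and 9.40% of genes. Between the strains, controls of WSB were wholly above B6 for 6 members and below for 1, Gbp3, where 12.5% of all genes lay above and 12.6% below. With ID-8, none of the members lay wholly below, for which no share of all genes is given.

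The strains differed at maturation mostly in the cultures with ID-8. Averaged over control and ID-8, 27 members were higher in WSB and 1 lower, with 15.1% of genes called higher and 14.3% lower. In control cultures alone only 6 were higher and 1 lower, against 7.38% and 7.39%. Those 6 were Trim5, Ifit2, Gbp9, Ifitm3, Mx2 and Oas1a. Averaged over treatment, Trim5 was higher by 4.00 ± 0.25 (adjusted p = 7.193e-09), Gbp9 by 2.36 ± 0.16 (2.272e-08), Ifit2 by 1.38 ± 0.11 (1.506e-07), Ifitm3 by 1.16 ± 0.12 (1.761e-06) and Mx2 by 2.37 ± 0.33 (5.604e-05) on the log2 scale. For Trim5 the difference between controls was not seen in its sum with Trim12c, given above. For another 3 members the controls alone did not differ: Ifi44 was higher by 2.23 ± 0.28, Ifit3 by 1.48 ± 0.19 and Usp18 by 2.41 ± 0.33, but in controls alone the values were -0.31, 0.17 and 0.69 with no call. Gbp3 was lower in WSB by 0.89 ± 0.29, and in controls by 1.91.

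Other genes of the pathway were counted by list at maturation. Of 56 further interferon-stimulated genes tested, 30 fell and 1 rose with ID-8 in B6, among them B2m, the light chain of MHC class I, which fell by 1.49 on the log2 scale from 238.3 ± 31.1 to 82.4 ± 10.8 CPM. In WSB the B2m level was 235.0 ± 51.6 CPM in controls and 234.8 ± 61.9 with ID-8, and the difference of responses was 1.55. Of 14 adaptors and induction factors 4 fell, and of 17 genes that restrain the pathway 2 rose and 1 fell. The receptor Tlr4 fell in both strains, by 2.38 in B6 and 1.75 in WSB. The chemokines Ccl5 and Cxcl10 rose in WSB, by 7.25 and 2.77. Ccl5 also rose in B6, by 5.10, from 0.173 ± 0.243 to 5.92 ± 2.18 CPM. The level of Cxcl10 in B6 was 6.02 ± 1.82 CPM in controls and 15.2 ± 6.44 with ID-8, against 1.37 ± 1.07 and 8.88 ± 5.25 in WSB. Ligand transcripts were nearly absent throughout: 13 genes of type I and III interferons held 226 counts over all 70 libraries, with at most 19 in 1 library.

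Some cell type markers also differed between groups. Summed microglia and macrophage markers were at 24.3 to 50.4 CPM in B6 controls and 28.2 to 30.7 with ID-8, with 0 of 6 tested called by edgeR. Endothelial markers were at 19.7 to 34.4 CPM in B6 controls and 6.04 to 15.4 with ID-8, where 2 of 5 fell. Fibroblast markers were higher in WSB for 5 of 8, with sums of 1795 to 4359 CPM in WSB controls against 638.2 to 1001 in B6. Astrocyte sums ran from 823.7 to 4893 CPM in B6 controls and from 5839 to 7711 in WSB with ID-8, groups that differ in both strain and treatment. Of 8 astrocyte markers, 2 were called higher in WSB averaged over treatment. With ID-8, 2 of 8 rose in B6 and 1 of 8 in WSB. The part of these markers in the results was not tested.

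At the NPC stage the strain difference, averaged over control and ID-8, ran against the same average at maturation. In mature controls alone few members had differed between the strains. WSB was lower for 30 of 40 members tested and higher for 6, with a median log2 difference of -1.35 against -0.01 over all genes. All genes differed widely too, with 34.5% called higher and 36.1% lower, so a call alone says little here. Within the first library block, 4 members were higher and 25 lower against 24.7% and 27.4% of genes, and within the second 4 and 28 against 26.4% and 32.1%.

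All 10 sensors were lower in WSB progenitors. Ifih1 was lower by 2.17 ± 0.27 (adjusted p = 4.071e-07). Oasl2 ran from 3.54 CPM in the lowest to 24.7 in the highest B6 control, with a median of 12.4, and from 1.12 to 4.20 in WSB controls, with a median of 2.25. The groups overlapped only at their edge, and the log2 difference averaged over ID-8 was -2.11 ± 0.27 (5.813e-07). Irf1, a factor that acts early in the response, was lower by 1.80 ± 0.15 (8.945e-10), and Irf7 by 2.36. Irf7 was at 1.01 to 6.61 CPM in B6 controls, median 2.31, and at 0.104 to 0.537 CPM in WSB controls, median 0.372. These groups did not overlap.

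Effectors followed the sensors. Rsad2 was lower in WSB by 3.17 ± 0.40 (5.515e-07), Isg20 by 2.71 ± 0.36 (8.554e-07), Gbp2 by 2.15 ± 0.28 (8.046e-07), Trim25 by 1.86 ± 0.24 (8.561e-07) and Parp14 by 1.99 ± 0.27 (1.471e-06), all from edgeR. Trim25 was at 53.6 to 175.5 CPM in B6 controls, median 105.7, above all WSB controls at 18.6 to 49.1, median 34.3. Parp14 was at 3.85 to 17.9 CPM against 0.850 to 2.77, and Bst2 at 10.1 to 39.1 against 2.81 to 11.1. Ifi35 was at 1.89 to 6.83 CPM in B6 controls, median 3.72, and at 0.737 to 1.55 in WSB, median 1.27. The controls of the strains overlapped for Bst2 and Gbp2 and lay apart for the other effectors named here.

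In WSB progenitors 6 members were higher. Gbp9 was higher by 2.40 ± 0.16 (1.79e-11), with 1.34 to 2.56 CPM in B6 controls, median 2.33, and 9.59 to 12.7 CPM in WSB, median 9.95. Its sum with Gbp4 was 3.01 ± 0.769 against 10.7 ± 1.11 CPM. Ifit2 was higher by 1.28 ± 0.24 (5.786e-05), with 0.525 to 1.83 CPM in B6 controls and 1.12 to 3.58 in WSB, which overlap. Trim5 was higher by 1.15 ± 0.27 (0.0007556), but its sum with Trim12c was 9.15 ± 4.08 CPM in B6 controls and 3.97 ± 1.28 in WSB, the reverse order. Ifit2 and Trim5 were not called within the second library block alone. Stat2, Cmpk2 and Ifnar1 were higher by 0.71, 0.47 and 0.26. For Cmpk2 the controls overlapped, at 6.82 to 14.5 CPM in B6 and 7.48 to 11.5 in WSB, with means of 10.7 and 9.65, and with ID-8 the means were 6.35 and 13.1. Stat2 was at 35.6 to 57.2 CPM in B6 controls, median 38.2, and 40.6 to 69.1 in WSB, median 60.2, and Ifnar1 at 90.6 to 121.3, median 96.3, and 100.7 to 115.3, median 104.5.

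Of 44 further interferon-stimulated genes tested at this stage, 39 were lower in WSB and none higher, among them Ly6e by 1.59, Ifitm2 by 2.00 and Pml by 2.24 on the log2 scale. All 8 pluripotency markers were lower in WSB progenitors, with sums of 409.2 to 1086 CPM in B6 controls and 39.1 to 69.9 in WSB. Endothelial sums were 66.9 to 339.9 CPM and 30.7 to 77.2 CPM. Their part in the strain difference was not tested. Among B6 controls, replicate 6 was the highest for 25 of 43 members and replicate 3 the lowest for 29.

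With ID-8, B6 progenitors had 15 of 40 members lower and none higher, against 22.0% of genes lower and 18.4% higher. Gbp7 fell by 1.40 ± 0.32 (adjusted p = 0.001626), Ifi35 by 1.48 ± 0.34 (0.00178), Mx2 by 2.29 ± 0.56 (0.002857), Isg15 by 2.07 ± 0.54 (0.004548), Ifih1 by 1.38 ± 0.37 (0.005228), Rsad2 by 1.97 ± 0.53 (0.006107), Oasl2 by 1.31 ± 0.37 (0.0076) and Usp18 by 1.81 ± 0.52 (0.009196). Ifi35 with ID-8 was at 0.992 to 1.79 CPM, median 1.37, all below the control range given above. Single library blocks gave fewer calls: the first alone gave 2, Ifi35 and Irf9, against 4.03% of genes lower, and the second alone gave 1, Mx2, against 11.0%. The median log2 difference of the members was -0.67 over both blocks, -0.81 in the first and -0.32 in the second. Jak2, a kinase of cytokine receptors, also fell, by 0.81. Fibroblast markers rose for 6 of 8 and pluripotency markers for 5 of 8 with ID-8 in B6, and pluripotency markers for 7 of 8 in WSB; their part was not tested. In WSB progenitors 1 member, Ifitm3, rose by 1.02 ± 0.24 (adjusted p = 0.01069), where 4.71% of genes were called higher and 4.86% lower. It was at 12.9 to 30.6 CPM in WSB controls, median 20.9, and at 23.0 to 67.5 with ID-8, median 40.3, which overlap, and it was not called in either library block alone. For the difference of responses edgeR called 0 members, against 1.44% of genes called higher and 1.76% lower. At an unadjusted p under 0.05 there were 5 members, with no share of all genes given.

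At axonal regrowth WSB was again the lower strain. It was lower for 29 of 44 members and higher for 5, with a median log2 difference of -1.04, where 19.6% of genes were called higher and 22.3% lower. Without any 1 library the members called numbered 33 to 35.

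Of 10 sensors, 7 were lower in WSB at this stage. Oasl2 was at 3.43, 5.39, 13.6 and 15.0 CPM in uncut B6 controls and at 0.985, 0.723, 0.620 and 0.665 CPM in uncut WSB controls. The groups lay apart, and the difference over all groups was -2.57 ± 0.31 (8.2e-07). The GTPases Gbp4 and Gbp3 were lower by 2.60 ± 0.32 (9.953e-07) and 3.63 ± 0.45 (1.272e-06), Isg15 by 3.10 ± 0.41 (2.739e-06) and Irf7 by 2.03 ± 0.27 (2.773e-06). Irf7 was at 0.836, 1.74, 2.92 and 2.70 CPM in uncut B6 controls and 0.504, 0.334, 0.236 and 0.291 in WSB. Of the effectors, Xaf1 was lower by 2.38 ± 0.30 (1.874e-06), Ifi35 by 2.26 ± 0.29 (2.161e-06) and Parp14 by 2.53 ± 0.34 (3.564e-06).

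Gbp9, Ifit2 and Trim5 were the exceptions here, as in progenitors. Gbp9 was at 6.38, 6.21, 10.1 and 9.06 CPM in uncut B6 controls and 16.4, 29.3, 21.2 and 21.7 CPM in WSB, a difference over all groups of 1.26 ± 0.22 (7.601e-05). Ifit2 was higher by 1.38 ± 0.24 (8.188e-05), with 6.64, 5.90, 9.32 and 10.7 CPM in uncut B6 controls and 8.69, 25.6, 19.1 and 13.1 CPM in WSB. Trim5 was higher by 2.73 ± 0.42 (2.052e-05), but its sum with Trim12c was 11.1 ± 5.40 CPM in uncut B6 controls and 8.10 ± 5.49 in WSB. Neither Ifit2 nor Trim5 was called from uncut controls alone. Stat2 and Ifnar1 were higher by 0.42 and 0.16.

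**Figure D4:**
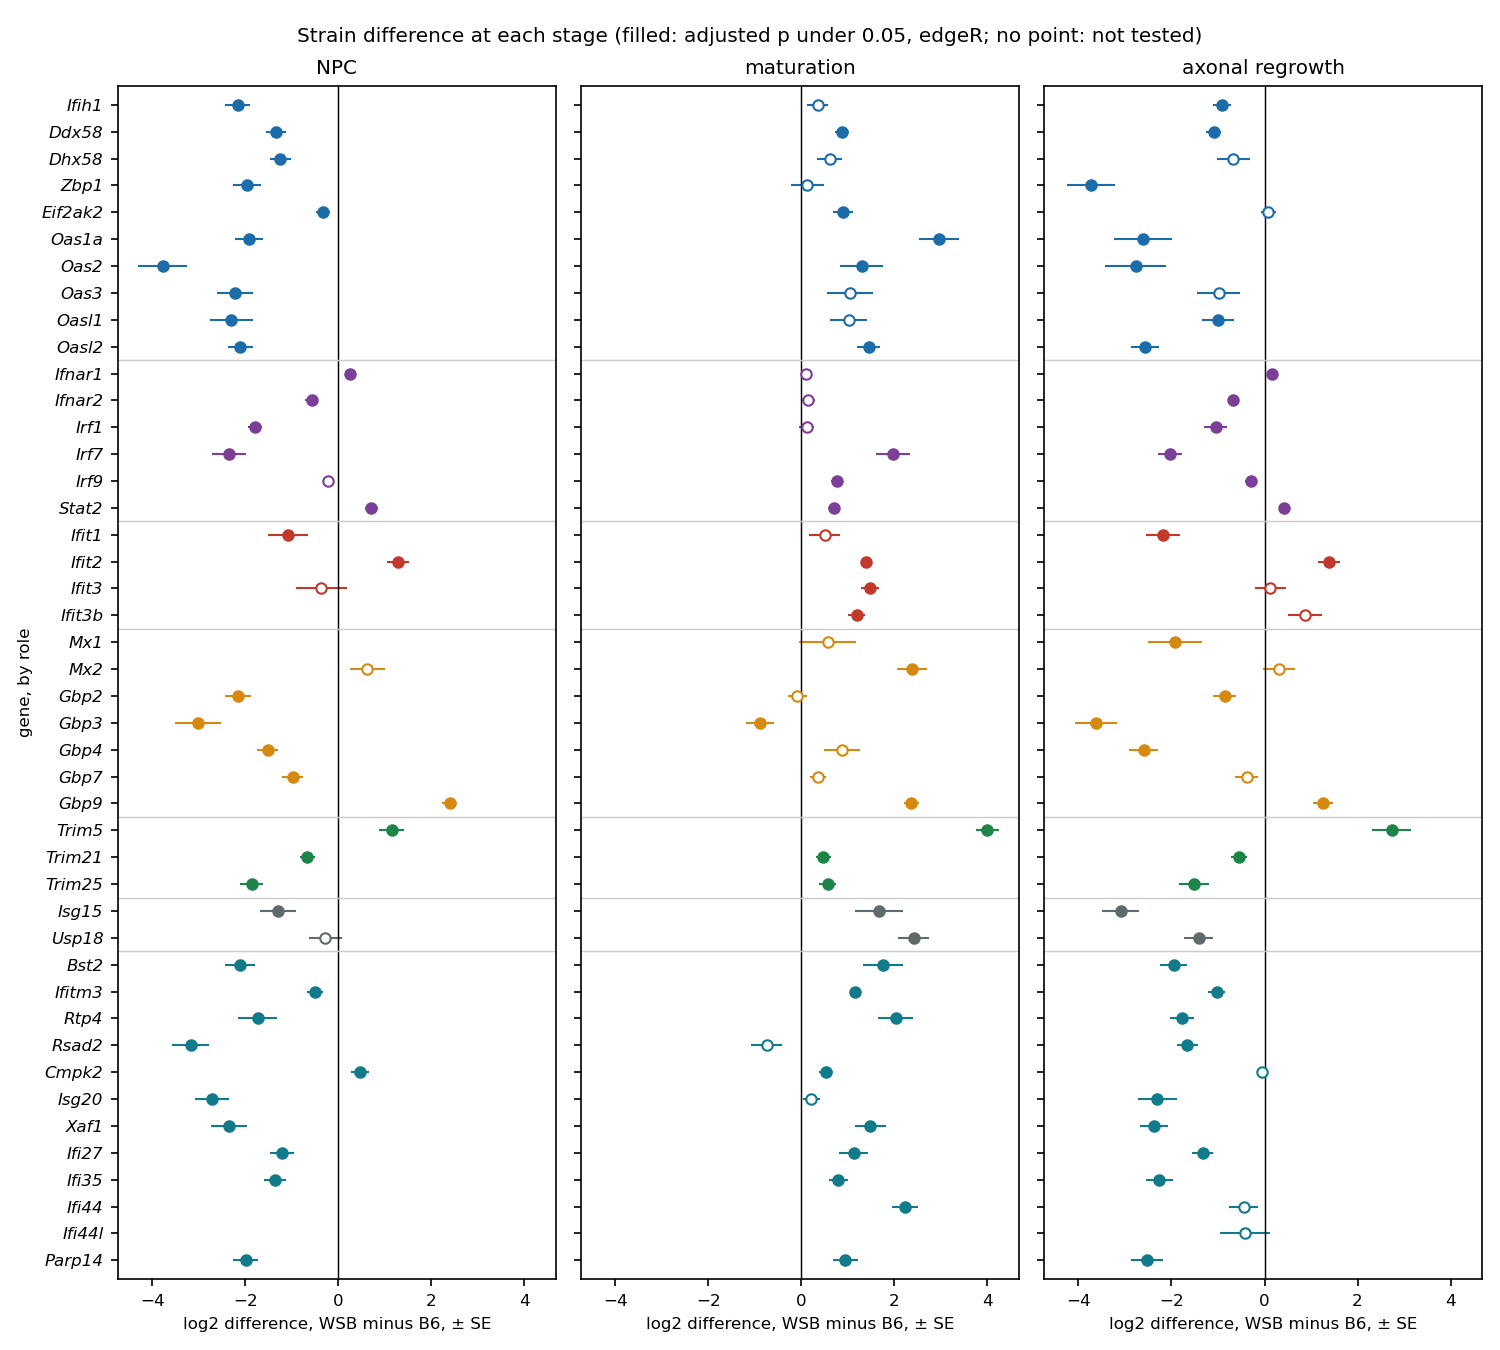
Log2 difference of WSB from B6 (horizontal axis, ± SE) for each gene by role at the NPC, maturation and axonal regrowth stages, with filled points for an adjusted p under 0.05. Most genes lie left of 0 in progenitors and at axonal regrowth and right of 0 at maturation, as Irf7 does with -2.36, -2.03 and 1.97. The values average over treatment. In mature controls alone Irf7 was at 5.28 ± 2.27 CPM in B6 and 6.25 ± 3.41 CPM in WSB and was not called.

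Culture sets of the axonal regrowth stage differed in the level of the module. The labels number the cultures, 4 sets per strain, and libraries of a B6 set deviated together. In B6 the median member was at 5.66 to 9.68 CPM in sets 3 and 4 and at 2.52 to 5.13 CPM in sets 1 and 2. Trim25 was at 12.9, 7.44, 37.6 and 33.8 CPM in the 4 uncut B6 controls and at 9.02, 6.79, 4.87 and 11.3 in uncut WSB controls. Bst2 was at 2.96, 4.47, 8.30 and 9.34 CPM against 0.482, 1.20, 0.856 and 0.541. Endothelial marker sums were 166.7 to 237.9 CPM in B6 sets 3 and 4, 18.6 to 138.9 in sets 1 and 2, and 5.56 to 64.4 in WSB. All 5 endothelial markers tested were lower in WSB and all 8 astrocyte markers higher, and their part in the strain difference was not tested. Of 54 further interferon-stimulated genes, 34 were lower in WSB and 1 higher. Lgals3bp and Cxcl10 were lower by 2.56 and 2.65.

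**Figure D5:**
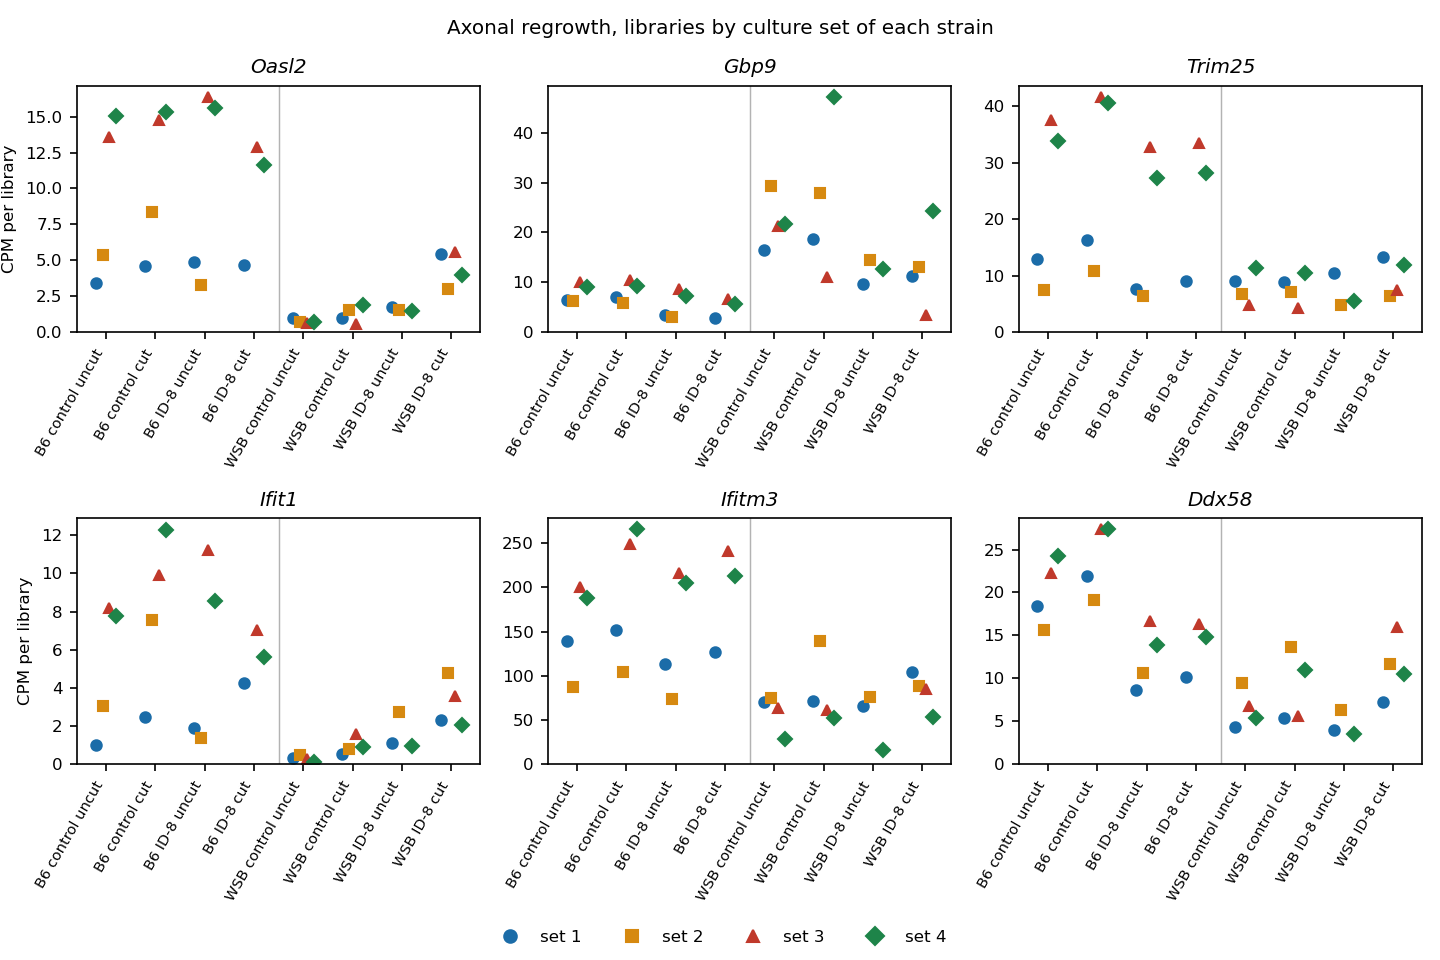
Level in CPM of Oasl2, Gbp9, Trim25, Ifit1, Ifitm3 and Ddx58 in the 30 axonal regrowth libraries by group, with a marker for each of the 4 culture sets of a strain. For Trim25 in uncut B6 controls, sets 3 and 4 sit at 37.6 and 33.8 CPM and sets 1 and 2 at 12.9 and 7.44 CPM.

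Axotomy called no member in either strain, and no gene at all, so the background was 0% in both directions. At an unadjusted p under 0.05 there were 0 members in B6 and 12 in WSB, and DESeq2 called 0 and 1. Neither the difference between strains nor that between ID-8 and control called a member, with 3 and 0 at an unadjusted p under 0.05. The share of all genes under these looser rules is not given, so these counts cannot be set against a background. With the culture set as a block and the library that stood apart left out, 12 members were higher after axotomy in WSB and none lower, against 1.99% of genes called higher. They were Ddx58, by 0.70 ± 0.12 (adjusted p = 0.01173), Oasl2 by 0.96 ± 0.20, Ifit3 by 0.89, Ifitm3 by 0.59, Ifih1, Eif2ak2, Ifit2, Gbp2, Gbp3, Usp18, Rtp4 and Xaf1. With that library kept the block gave 3, against 0.215% of genes, and without block or library there were 0. Ddx58 in uncut WSB controls was at 4.36, 9.45, 6.79 and 5.41 CPM and in cut ones at 5.39, 13.7, 5.60 and 11.0 CPM, in set order, so that 3 of 4 sets were higher after the cut. In B6 the block gave 0.

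In the fit without culture sets few members were called for ID-8 at axonal regrowth, and with the set as a block there were more. In B6 edgeR called 0 of 44, where 0.226% of genes were called higher and 0.127% lower. There were 7 at an unadjusted p under 0.05 and 3 by DESeq2, with no share of all genes given. With the culture set as a block 8 fell, against 4.34% of genes lower and 4.13% higher. They were Ifih1 by 1.05 ± 0.16, Ddx58 by 0.81 ± 0.14, Gbp2, Irf1, Trim25, Gbp9, Gbp7 and Cmpk2. Without the library that stood apart 13 fell, against 7.52% of genes. Ddx58 was at 18.4, 15.6, 22.3 and 24.3 CPM in uncut B6 controls and at 8.61, 10.6, 16.7 and 13.9 CPM with ID-8, lower in each of the 4 sets.

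In WSB 1 member rose with ID-8 at axonal regrowth, Ifit1, by 2.11 ± 0.47 (adjusted p = 0.04676), where the background was 0.237% higher and 0.138% lower. It was at 0.328, 0.473, 0.296 and 0.125 CPM in uncut controls and 1.10, 2.76 and 0.933 CPM with ID-8, groups that lay apart. The call was lost in 24 of 30 fits that left out 1 library, among them the one without the library that stood apart. With the set as a block and without that library, 14 members rose and 2 fell, against 6.67% and 6.27% of genes. Those that rose included all 4 Ifit genes, Oasl2 by 1.25 ± 0.21, Usp18 by 1.35 ± 0.27, Bst2 by 1.15 ± 0.27, Rtp4, Ifi27 and Ifi44, and those that fell were Gbp9 by 0.87 ± 0.16 and Gbp2 by 0.68 ± 0.13. Ifit1 and Oasl2 were also among the members that rose with ID-8 in mature WSB cultures. Between strains, the difference of responses called 0 members, and 0.00552% of genes were called higher and 0% lower. At an unadjusted p under 0.05 there were 14 members, with no share of all genes given. With the block the difference of responses called 2 as higher in WSB, Oasl2 and Ifit1, against 0.110% of genes. Without the library that stood apart there were 3, these and Ifi44, against 0.199%.

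The progenitor and axonal regrowth stages were compared within the second library block, between uncut axonal regrowth controls and NPC controls. In B6, 13 of 42 members tested were higher at axonal regrowth and 8 lower, against 30.3% and 33.3% of all genes, and in WSB 11 and 8, against 29.1% and 29.7%, so these shares are near or below the background. In B6 the higher members were led by Ifi27 with 3.35 ± 0.37 (adjusted p = 1.044e-05), Gbp9 with 1.70 ± 0.21, Cmpk2, a mitochondrial nucleotide kinase, with 1.41 ± 0.20, Ifitm3 with 1.98, Gbp4 with 2.24 and the Ifit genes, with 4.50 for Ifit3 and 2.70 for Ifit2. Lower were Oas3 by 4.66 ± 0.80, Oas1a by 3.57 ± 0.65, Trim25 by 2.30, Rsad2 by 2.21, Bst2 by 1.90, Parp14 by 1.34 and Isg20 by 1.22. Without B6 NPC control replicate 6, the calls of Bst2, Isg20, Parp14 and Rsad2 were lost. In WSB, Ifit3b was higher by 6.11 ± 0.98, Ifit2 by 3.10, Ifi27 by 2.07 and Gbp7 by 2.47, and Oas1a, Zbp1, Bst2 and Usp18 were lower by 4.85, 4.42, 3.20 and 2.48. Some of these falls end near or under the floor of 3 counts. In uncut axonal regrowth controls the group mean of Oas3 was 0.068 CPM in B6. Those of Oas1a and Zbp1 were 0.0419 and 0.0074 CPM in WSB. Rises may likewise start near the floor. In the NPC fit 3 of 4 Ifit genes and 10 of 12 membrane-bound and other effectors passed the filter, against 4 and 11 here. A member added here may pass only through its axonal regrowth level. The rise of Ifit3b is also hard to separate from that of Ifit3. The stage difference did not differ between strains for any member by edgeR, where 2.61% of genes were called higher and 1.25% lower. There were 7 members at an unadjusted p under 0.05 and 2 lower by DESeq2, with no share of all genes given. Mature cultures shared their library block with no progenitor library and with 4 axonal regrowth libraries, all of WSB set 4 and 1 for each treatment, and were not compared with the other stages.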

How the data were processed

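Stranded polyadenylated RNA libraries were sequenced, and the authors deposited expected counts per gene; per the submitters' processing notes, GRCm38, Bowtie2, RSEM, featureCounts and limma were used, with versions and counting strand not given in the sources used here. Of the values, 9.32% were not whole. The 76 sample rows are 70 libraries, since 6 had repeat runs, which were summed. Counts were rounded and each stage was fitted with edgeR 4.0.16 in R 4.3.3 (robust quasi-likelihood test, TMM scaling, filterByExpr with a minimum count of 10, library block as covariate). Strain contrasts weighted treatments equally. P-values were adjusted by Benjamini-Hochberg over all genes tested, and called means under 0.05. DESeq2 1.42.0, other filters and scalings, blocks and left-out libraries were alternatives. Counts of members by DESeq2 or at an unadjusted p are given without the share of all genes. The scripts were tested on simulated data. P-values measure the spread between these libraries, which the labels do not say were independent cultures throughout. Culture sets paired axonal regrowth libraries in B6 (correlations of deviations 0.643 to 0.921, 21 of 21 pairs) and in WSB without ID-8 cut replicate 3 (0.605 to 0.918, 19 of 19). Symbols matched 37607 of 38924 genes. The members and lists were chosen with earlier results of these data known. Named members are called ones of at least 2-fold, up to 8 a direction by smallest p, or, where fewer than 4 reach that, up to 4 called. Values by library are given for the 8 members called most often, for Mx1, Irf7, Stat2 and Ifnar1, and for others the results turn on, chosen after their values were seen. Intervals of counting error are not given, and the floor of 3 counts covers counting error only.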

Additional observations from a re-analysis of the deposited data

Results flagged for a closer look

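Among 168 groups of 4 to 6 libraries examined for 12 members, 12 held a library far from the others, and chance gives about 1 in 20. The members share the same libraries, so these cases are not independent. Replicate 6 of the NPC groups gave 6 of them, and the labels do not link the libraries so numbered across groups. Gbp9 was at 12.7 CPM in WSB control replicate 6, against 9.59 to 10.7 in the others, and Parp14 at 3.05 CPM in WSB ID-8 replicate 6, against 0.689 to 1.47. In B6, replicate 6 stood apart for Stat2 in controls, at 57.2 CPM against 35.6 to 38.6, for Irf7 with ID-8, at 3.31 against 1.13 to 1.65, and for Mx1 in both, at 0.0775 CPM in controls and 0.0574 CPM with ID-8. Both Mx1 values lie within the range of the floor of 3 counts, 0.0228 to 0.147 CPM per library. Ifnar1 was at 121.3 CPM in B6 NPC control replicate 1, against 90.6 to 99.6. Oasl2 was at 22.2 CPM in mature B6 control replicate 2, against 13.3 to 14.5.

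At axonal regrowth, Parp14 was at 3.50 CPM in cut B6 control replicate 1, against 5.29 to 5.57 in the others. Bst2 was at 0.419 CPM in cut WSB control replicate 1, against 1.61 to 1.79, and Ifnar1 at 71.0 CPM in replicate 4 of that group, against 97.0 to 97.5. Mx1 was at 0.0219 CPM in uncut WSB control replicate 1, with no count in the other 3, which is under the floor of 3 counts.

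The response to ID-8 at maturation differed between the strains for 8 members by the interaction test. The difference of log2 responses, WSB minus B6, was 5.07 for Ifi44, 2.34 for Gbp9, 2.63 for Ifit3, 3.31 for Trim5, 1.95 for Ddx58, 2.87 for Oasl2, 1.32 for Irf9 and 3.45 for Usp18.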

How the results depend on the processing

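Of 1805 refits of the 93 named values, 1708 kept direction and call, 96 lost the call and 1 reversed, Ifi44 between strains at maturation in controls alone (-0.31). Counts of members called moved by over 1.5 times as follows; the causes were not tested. DESeq2 called 3 for ID-8 in WSB progenitors, 21 for the maturation response difference, 1 for axotomy in WSB, 3 and 4 for ID-8 at axonal regrowth in B6 and WSB, and 2 for the stage difference. Single library blocks gave 0 and 0 for ID-8 in WSB progenitors and 2 and 1 in B6, and the first block with replicate block gave 4. Single culture experiments gave 26 and 24 for the maturation response difference, and the second gave 16 for ID-8 in WSB. The culture experiment as replicate block gave 26 and 15 for these, though maturation numbers did not pair in every case (40 of 48 correlations above 0.1). Mature controls alone gave 7 for strain. With the culture set as replicate block, axotomy in WSB gave 3 (12 without the library that stood apart), ID-8 at axonal regrowth 8 (13) in B6 and 14 (16) in WSB, and their difference 2 (3). The WSB count of 1 was 0 without the filter, the second runs or the library block, and in uncut cultures. The replicate block moved no other count by this much. Leaving out 1 library gave 24 to 27 for strain at maturation, 25 to 30 and 3 to 8 for ID-8 in B6 and WSB, 6 to 11 for their difference, 33 to 35 for strain at axonal regrowth, 0 to 1 for ID-8 there in WSB, and 17 to 23 and 17 to 21 for stage in B6 and WSB. Mx1 stayed under 1 CPM in every group, where the floor of 3 counts was 0.0228 to 0.147 CPM per library.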
